A study of Mus musculus with 4 samples.

Results

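The genes described here are 9 surface markers by which mature B cell subsets are told apart: Fcer2a, Cd1d1, Cd9, Cd5, Cd93, Cd24a, Cd38, Ms4a1 and Fcgr2b. They were chosen by name, with earlier results of these data known, and each had 1 row among the 30041 genes of the deposited files. Splenic B cells of C57BL/6 mice were sequenced after 72 h of culture with LPS, the bacterial cell wall component that signals through TLR4. The control B cells came from Nfkbiz fl/Δ mice and the cKO B cells from Nfkbiz fl/Δ Mb1 cre/+ mice, with 2 samples in each group. Both groups thus carry 1 floxed and 1 deleted Nfkbiz allele, and the cKO cells carry in addition Cre driven from the Cd79a (Mb-1) locus, which acts from an early stage of B cell development. Nfkbiz codes for IκB-ζ, a nuclear IκB protein that works together with NF-κB. The LPS concentration is 20 mg/ml in the labels and 20 μg/ml in the study's methods. The number of mice was not given, nor their age under that name, in the sources used here. The question was whether the 2 groups differ, after LPS, in the markers of follicular, marginal zone, B1 and transitional cells. The groups differ both in IκB-ζ and in the Cre at the Cd79a locus, and the parts of these cannot be told apart.

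Follicular B cells recirculate and carry much CD23, whereas marginal zone B cells stay beside the splenic sinus, answer blood-borne antigen without T cell help, and carry much CD21, CD1d and CD9 with little CD23. B1 cells, many of which carry CD5, make natural antibody. Transitional B cells, newly arrived from the bone marrow, carry CD93 (the AA4.1 antigen) and much CD24. Activation itself changes several of these molecules, so after 3 days of LPS a transcript level need not mark the subset that a cell came from. In spleen cells without culture, the study compared immature (AA4.1+), marginal zone and follicular B cells by flow cytometry. It reported the same numbers in control and cKO mice, and peritoneal B1 cells in like abundance. Splenic B cells with both surface IgM and surface IgD were slightly fewer in cKO mice. The B cells had been purified by depletion of cells bearing CD43, CD4 or Ter-119, and CD43 is found on most B1 cells and plasma cells and also on T cells and many myeloid cells.

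Of the 8 markers that could be tested, 4 (Fcer2a, Cd24a, Cd93 and Fcgr2b) were lower in cKO B cells, against 1.25% of all genes tested. Cd9 alone was higher, against 0.812% of all genes tested. Cd93 entered the test through its control samples alone and stands in the study's own table of lower genes. The markers were chosen with earlier results of these data known, so these counts are not independent evidence. The falls were 1.71-fold for Fcer2a, 1.58-fold for Cd24a, 1.99-fold for Cd93 and 1.5-fold for Fcgr2b, and the rise of Cd9 was 2.39-fold. The scores of Ms4a1 (CD20), Cd38 and Cd1d1 differed by less than could be told from the spread between samples. Cd5 had low scores that were 3.41-fold higher in cKO samples, but it lay under the score filter and was not in the test. All fold changes are ratios of geometric means after 0.0001 was added to each score.

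A score was available for each gene and sample, and not a count. For genes of a single transcript, low score times exon length fell near whole multiples of a step common to the sample. Of these products, 75.4 to 81.9% lay within 0.2 of a step from a multiple, as they would for reads per exon base scaled to library size. The step was the one that fitted best, and a part of the products would lie that near for any step. If 1 step is 1 read, the libraries held between 17500000 and 19900000 reads, and levels of different genes can be compared per exon base. For genes of several transcripts, among them Fcer2a and Cd9, the exon length behind the score is not known, so their inferred reads are less certain. The test was limma on log2(score + 0.0001), and a gene entered it when any sample reached 0.005, which left 9727 genes and 8 of the 9 markers. For Nfkbiz, the targeted gene, the score was 0.0241 and 0.0226 in control and 0.0127 and 0.0116 in cKO samples (log2 fold change -0.94, limma adjusted p = 0.0282). Each gene has a single score, so the floxed part of Nfkbiz could not be looked at on its own. In control 2, 14 genes lay over 4-fold from all 3 other samples, and 5 of the 11 with a known position were on chromosome 17, where none of the 9 markers lies. Control 1 had 9 such genes, cKO 1 had 1 and cKO 2 had 0. In bulk RNA, fewer cells of a type and less RNA per cell cannot be told apart, and no batch is given by which the groups could be divided.

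A defining B cell marker was high in all samples. Ms4a1, which is restricted to B cells, lay above 97.8% of the tested genes by mean score. Cd3e, a chain of the T cell receptor complex, had scores of 0, 0.00004, 0.00007 and 0.0002 in control 1, control 2, cKO 1 and cKO 2.

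Reads of 38 bases were mapped, and 2 of the markers have close relatives beside them whose transcripts share longer stretches. Each 38-base window of the annotated exons was therefore searched for in the whole of NCBIM37, the assembly named mm9 by the authors. Of the 2348 windows of Cd1d1, 703 (29.9%) also occurred outside the gene, and 656 of these in Cd1d2, its neighbour on chromosome 3. Of the 3479 windows of Fcgr2b, 175 (5.03%) occurred elsewhere, all of them in Fcgr3, which codes for an activating IgG receptor. How the authors counted reads with several positions was not given in the sources used here. The longest stretch common to the exons of each pair is given because reads from it cannot be assigned to either gene. That of Cd1d1 and Cd1d2 has 202 bases and lies in Cd1d1 at chr3:86801260-86801461 (NCBIM37, minus strand), and that of Fcgr2b and Fcgr3 has 113 bases and lies in Fcgr2b at chr1:172896691-172896803 (minus strand).
Cd1d1 and Cd1d2: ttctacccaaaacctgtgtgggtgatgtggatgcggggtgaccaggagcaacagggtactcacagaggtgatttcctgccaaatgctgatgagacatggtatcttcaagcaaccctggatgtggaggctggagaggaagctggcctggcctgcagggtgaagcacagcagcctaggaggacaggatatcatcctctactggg
Fcgr2b and Fcgr3: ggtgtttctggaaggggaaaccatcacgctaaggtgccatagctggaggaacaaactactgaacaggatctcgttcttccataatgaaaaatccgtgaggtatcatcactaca
Cd24a had 557 of 1739 windows (32.0%) with a copy elsewhere, 553 of them within Hs6st3. For Cd9 the share was 16.7%, with copies of 279 of its 1674 windows under 8225 labels. A label was a gene, or the part of a chromosome without annotated genes. The share was 5.62% for Fcer2a, 3.42% for Cd38 and 2.20% for Cd93. Cd5 and Ms4a1 had 0 such windows. The values of Cd1d1 and Cd24a are therefore the least certain to belong to the named gene alone.

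Promoter sequences of the markers that changed are shown because these members moved in opposite directions. RefSeq windows of 300 bases on GRCm38.p6, from 250 bases before to 50 bases after the transcript start, were at hand for 5 of the 9 markers, and among those that changed for Fcer2a, Fcgr2b and Cd9. Capitals mark matches on either strand to GGGNNNNNCC, a loose form of the site bound by NF-κB. The windows are chr8:3694125-3694424 (the outermost of 3 starts), chr1:170976022-170976321 and chr6:125494711-125495010, all on the minus strand.
Fcer2a: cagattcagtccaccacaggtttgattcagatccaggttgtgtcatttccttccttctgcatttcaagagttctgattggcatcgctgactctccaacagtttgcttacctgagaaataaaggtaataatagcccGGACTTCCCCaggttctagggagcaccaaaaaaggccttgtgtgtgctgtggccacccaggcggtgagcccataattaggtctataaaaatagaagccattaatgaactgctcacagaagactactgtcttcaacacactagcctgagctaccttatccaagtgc
Fcgr2b: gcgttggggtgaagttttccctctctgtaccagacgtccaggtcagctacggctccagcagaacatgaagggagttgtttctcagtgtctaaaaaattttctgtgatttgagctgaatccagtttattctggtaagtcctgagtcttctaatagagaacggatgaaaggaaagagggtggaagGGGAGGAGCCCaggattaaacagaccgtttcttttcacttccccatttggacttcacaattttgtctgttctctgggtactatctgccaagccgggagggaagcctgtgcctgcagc
Cd9: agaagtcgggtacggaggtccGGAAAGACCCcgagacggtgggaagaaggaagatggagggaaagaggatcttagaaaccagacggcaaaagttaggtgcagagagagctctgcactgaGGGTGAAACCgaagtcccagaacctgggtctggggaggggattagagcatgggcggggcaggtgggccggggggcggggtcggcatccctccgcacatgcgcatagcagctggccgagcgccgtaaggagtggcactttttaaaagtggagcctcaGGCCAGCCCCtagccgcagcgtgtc
The single match of Fcer2a began at base -115 from the start and read GGACTTCCCC. Fcgr2b had overlapping matches on both strands from bases -67 and -66, and Cd9 had 3 matches, from bases -229, -131 and 26. A match was present in 4 of the 7 promoter windows of the markers and in 50.8% of all 32851 windows of that length in the RefSeq table. These matches describe the letters of the windows and nothing more.

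**Figure D1:**
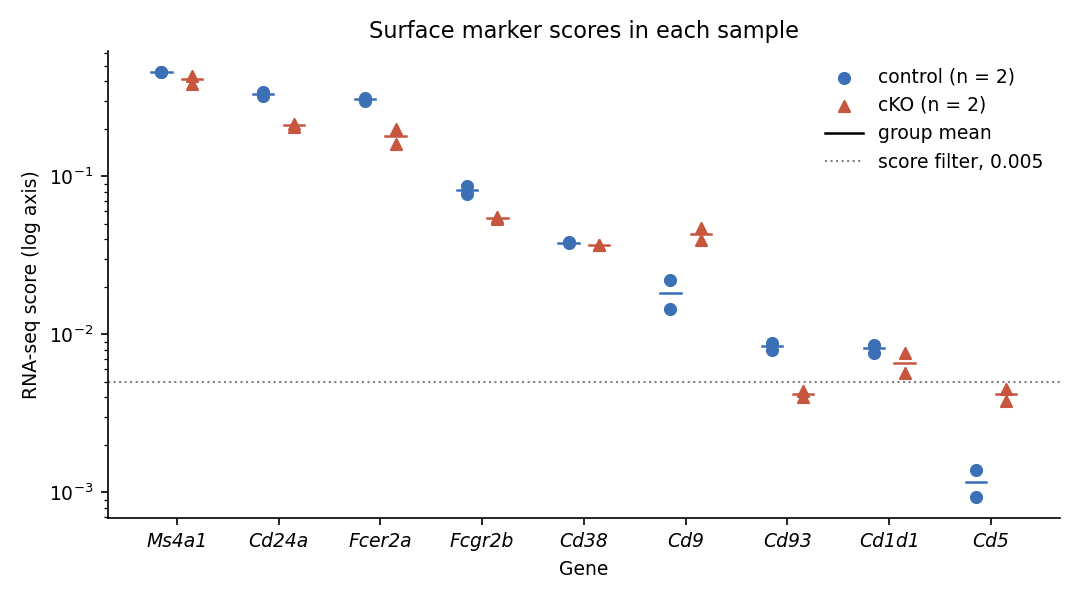
RNA-seq score (log axis) of the 9 surface markers in each control (circles) and cKO (triangles) sample, with group means as bars and the score filter of 0.005 as a dotted line. Cd9 lay below Cd38 in control and above it in cKO samples, and all 4 scores of Cd5 lay under the filter.

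Fcer2a codes for CD23, the low-affinity IgE receptor that marks follicular B cells. Its score was 0.300 in control 1, 0.313 in control 2, 0.161 in cKO 1 and 0.19952 in cKO 2. Both cKO samples lay below both control samples. The group means were 0.307 ± 0.00873 and 0.180 ± 0.0274 (SD, n = 2 each), and the log2 fold change was -0.78 (95% confidence interval -1.07 to -0.48, limma adjusted p = 0.0428). If the full exon length of 2279 bases, over 5 transcripts, lies behind the scores, they stand for about 12216, 13070, 7295 and 7969 reads. Counting error was then small beside the spread between samples. The gene lies on chromosome 8 from 3681737 to 3694174 (NCBIM37, minus strand). Even in cKO samples CD23 mRNA was abundant, and by mean score over the 4 samples it lay above 96.6% of the genes tested.

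Of the other follicular markers, none passed the test. All 8 genes of that list, among them Cxcr5, Ccr7 and Klf2, passed the filter, and Fcer2a was the single one past the adjusted threshold. Of the 8, 3 had a log2 fold change below 0, against 51.8% of all genes tested. Both cKO samples lay below both control samples for 2, Fcer2a included, against 30.1% of all genes tested. They lay above both control samples for 1, against 28.1%. Their median log2 fold change was 0.10, against -0.0098 for all genes tested.

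Cd1d1, Cd9 and Cr2 are markers of marginal zone B cells. Cd1d1 codes for CD1d, which presents lipids to natural killer T cells. Its score was 0.00862 and 0.00767 in control and 0.00566 and 0.00757 in cKO samples. The cKO scores were both lower, the second by little, and the log2 fold change of -0.31 (95% confidence interval -0.74 to 0.12, limma adjusted p = 0.347) did not pass the threshold. Cd1d2, which shares exon sequence with it, had scores of 0.00474, 0.00427, 0.00228 and 0.00346 and lay under the filter. Cr2, which codes for the complement receptor CD21, had scores of 0.0859 and 0.0935 in control and 0.0664 and 0.0704 in cKO samples. The groups did not overlap, but the log2 fold change of -0.39 was not past the threshold (95% confidence interval -0.61 to -0.17, limma adjusted p = 0.0965).

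Cd9 codes for a tetraspanin, a protein with 4 membrane spans that organizes other surface molecules, and CD9 is carried by marginal zone and B1 cells and by many plasma cells. Its score was 0.0146 in control 1, 0.0222 in control 2, 0.0468 in cKO 1 and 0.0395 in cKO 2. Both cKO samples lay above both control samples, whose own scores differed 1.52-fold. The group means were 0.0184 ± 0.00536 and 0.0432 ± 0.00517 (SD, n = 2 each), and the log2 fold change was 1.25 (95% confidence interval 0.75 to 1.76, limma adjusted p = 0.0496). The inferred reads were about 531, 830, 1907 and 1416. On the per-base scale, Cd9 mRNA was thus below Cd38 in both control samples and above it in both cKO samples. Cd9 lies on chromosome 6 from 125410284 to 125444809 (minus strand).

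Because Cd9 rose while Fcer2a fell, their ratio within a sample differed more than either gene. Cd9 was 0.0485 and 0.0708 of Fcer2a in control and 0.291 and 0.198 in cKO samples, a difference of 2.03 on the log2 scale. Cd1d1 was 0.0287 and 0.0245 of Fcer2a in control and 0.0352 and 0.0379 in cKO samples, and Cr2 was 0.286 and 0.299 in control and 0.413 and 0.353 in cKO samples, differences of 0.47 and 0.39 on the log2 scale. These ratios do not depend on the scaling of a library. They were higher in both cKO samples for each of the 3 genes, as they were for 94.9% of the 9726 other genes tested, since Fcer2a itself was lower. Cd1d1 and Cr2 had lower scores of their own in cKO samples, so nothing about either gene follows from its ratio. By an exact permutation test (two-sided) each had p = 0.33, the smallest value that 2 samples against 2 can give.

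**Figure D2:**
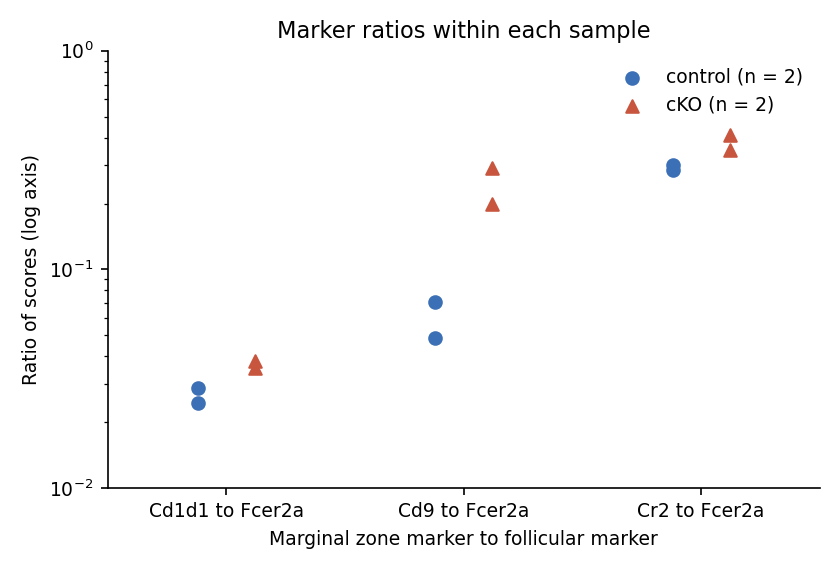
Ratio of the score of Cd1d1, Cd9 and Cr2 to that of Fcer2a (log axis) in each control (circles) and cKO (triangles) sample, 2 per group. The groups do not overlap for any of the 3 ratios, as for 94.9% of the other genes tested, and the widest gap is that of Cd9, from 0.0708 in control 2 to 0.198 in cKO 2.

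In the whole marginal zone list, 11 of 14 genes passed the filter and their median log2 fold change was 0.12. Cd9 was called higher and Cd36 lower, and 0 others were called. Cd36, a scavenger receptor for lipids, had scores of 0.182 and 0.160 in control and 0.0673 and 0.0932 in cKO samples (log2 fold change -1.10, limma adjusted p = 0.0420). It is among the genes that the study tabulated as lower in these same samples, so its direction is not independent evidence. Of the tetraspanins, 16 of 24 genes passed the filter with a median of 0.23, and Cd9 and Cd63 were called higher and 0 lower. Cd63, a tetraspanin of late endosomes and secretory granules, had scores of 0.00358 and 0.00434 in control and 0.00805 and 0.00862 in cKO samples (log2 fold change 1.06, limma adjusted p = 0.0430), and it passed the filter through its cKO samples alone.

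Cd5 codes for a scavenger receptor family protein that dampens antigen receptor signalling, and it is carried by B1a cells and by T cells. Its score was 0.00094 in control 1, 0.00139 in control 2, 0.0038 in cKO 1 and 0.00453 in cKO 2. Both cKO samples lay above both control samples, with group means of 0.00117 ± 0.000318 and 0.00417 ± 0.000516 (SD, n = 2 each) and a log2 difference of 1.77. All scores were under 0.005, the highest by little, so no test belongs to this value. With a filter of 0.001, chosen after the data were seen, the limma adjusted p was 0.0449 over 13229 genes, and with no filter it was 0.208 over 21582 genes. At an exon length of 2069 bases the scores stand for about 35, 53, 157 and 164 reads, and all 38-base windows of its exons were found at this locus alone (chromosome 19 from 10792633 to 10813464, minus strand).

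Markers of T cells, the other cells that carry CD5, were low in all samples. Of 14 genes in a T and NK cell list, 2 passed the filter and 0 were called, at a median of 0.47 on the log2 scale. These were Lck and Cd2, which are also transcribed in B cells, and without them the summed score of the list was 0.00352 and 0.00321 in control and 0.00618 and 0.00559 in cKO samples. Gzma, chosen like Lck and Cd2 after its values were seen, was listed at 0 in all samples, and Cd3e reached at most 0.0002, about 5 reads, in the sample where Cd5 had about 164. Thy1, picked out after its values were seen, had scores of 0.00003 in both control samples and of 0.00069 and 0.00085 in cKO samples. Cd6, the neighbour and relative of Cd5, had 0, 0.00005, 0.00054 and 0.00011. The part of T cells in the Cd5 difference was not tested beyond these values. Cd5l, another gene of that family, which codes for a secreted protein of macrophages, had 0.00065, 0.00618, 0.0109 and 0.00773 (limma adjusted p = 0.254), and it was the single one of the 3 genes of the family list past the filter, with a log2 fold change of 2.10. In the B1 list 6 of 9 genes passed the filter, 0 were called and the median was 0.20. Of the 6, 1 had a log2 fold change below 0, and it stands in the study's own table of lower genes.

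Cd93 and Cd24a mark transitional B cells. Cd93 codes for the C-type lectin-like protein recognized as AA4.1, which is also carried by plasma cells. Its score was 0.00882 and 0.00801 in control and 0.00435 and 0.00399 in cKO samples. The groups did not overlap, their means were 0.00842 ± 0.000573 and 0.00417 ± 0.000255 (SD, n = 2 each), and the log2 fold change was -0.995 (95% confidence interval -1.36 to -0.64, limma adjusted p = 0.0400). Cd93 passed the filter through its control samples alone, and it stands in the study's own table of genes lower in these samples, so neither its presence nor its direction is independent evidence. Its exons are long, 6677 bases, and the inferred reads were about 1051, 981, 579 and 467. It lies on chromosome 2 from 148262376 to 148269299 (minus strand).

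Cd24a codes for CD24, or heat-stable antigen, a small heavily glycosylated protein held in the membrane by a lipid anchor. Its score was 0.342 in control 1, 0.322 in control 2, 0.206 in cKO 1 and 0.215 in cKO 2. Samples of 1 group lay within 1.06-fold of each other, and the groups did not overlap. The group means were 0.332 ± 0.0145 and 0.210 ± 0.00646 (SD, n = 2 each), and the log2 fold change was -0.66 (95% confidence interval -0.85 to -0.46, limma adjusted p = 0.0306). Where reads with several positions are placed could alter its level, since the copy within Hs6st3 shares 553 of its windows. The gene lies on chromosome 10 from 43298975 to 43304068 (plus strand).

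The transitional and immature list held 10 genes, of which 4 passed the filter. Of these, 3 (Cd93, Cd24a and Vpreb3) were called lower, against 1.25% of all genes tested. The median log2 fold change of the 4 was -0.82, against -0.0098 for all genes tested. Apart from the markers Cd93 and Cd24a, 2 genes of the list passed the filter and 1 was called. Vpreb3, which codes for a chaperone-like protein of the immature B cell receptor complex, had scores of 0.0176 and 0.0205 in control and 0.00936 and 0.00981 in cKO samples (log2 fold change -0.98, limma adjusted p = 0.0294). The surrogate light chain gene Igll1 was listed at 0 in all samples, and Rag1, which codes for the recombinase of immature cells, had scores of 0.00039, 0.00032, 0.00028 and 0.00025 (both chosen after their values were seen).

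Fcgr2b codes for FcγRIIB, the inhibitory IgG receptor, by which immune complexes restrain B cells of all subsets. Its score was 0.0865 in control 1, 0.0776 in control 2, 0.0552 in cKO 1 and 0.0539 in cKO 2. The groups did not overlap, their means were 0.0821 ± 0.00624 and 0.0545 ± 0.000891 (SD, n = 2 each), and the log2 fold change was -0.59 (95% confidence interval -0.81 to -0.37, limma adjusted p = 0.0428). Fcgr3 had scores of 0.0148 and 0.0125 in control and 0.00867 and 0.00672 in cKO samples (log2 fold change -0.82, limma adjusted p = 0.0745). It was thus at a lower level than Fcgr2b in each sample, and reads of the shared stretch could count towards either gene. Fcgr2b lies on chromosome 1 from 172890689 to 172906678 and Fcgr3 from 172981300 to 172995066, both on the minus strand.

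Among 15 Fc receptors and Fc receptor-like genes, 8 passed the filter, Fcer2a and Fcgr2b were called lower and Fcer1g higher. The median log2 fold change was -0.13. Apart from the markers Fcer2a and Fcgr2b, 6 genes of the list passed the filter and 1 was called. Fcer1g codes for the signalling chain shared by activating Fc receptors of myeloid and NK cells. Its score was 0.00393 and 0.00571 in control and 0.0185 and 0.0125 in cKO samples (log2 fold change 1.66, limma adjusted p = 0.0420).

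Myeloid cells can carry CD9, FcγRIIB and CD93, and many of them bear CD43, a molecule by which cells were depleted before culture. Of a myeloid list, 4 of 13 genes passed the filter, 0 were called and the median log2 fold change was 1.07. Itgam, the highest of them, had scores of 0.135 to 0.158 that overlapped between groups (limma adjusted p = 0.988). Without it, the summed score of the 12 other genes was 0.0417 and 0.0240 in control and 0.0830 and 0.0607 in cKO samples. Lyz2, a lysozyme of macrophages and granulocytes, had scores of 0.0205 and 0.0112 in control and 0.0485 and 0.0329 in cKO samples (log2 fold change 1.39, limma adjusted p = 0.0961). S100a9 and Elane, chosen after their values were seen, were listed at 0 in all samples. Among the markers of platelets, which carry much CD9, 0 of 7 genes passed the filter, the summed score was 0.0013 and 0.00069 in control and 0.00303 and 0.00229 in cKO samples, and Pf4 reached 0.00187. The part of myeloid cells in the rise of Cd9 was not tested.

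Ms4a1 and Cd38 are not confined to 1 subset. Ms4a1 codes for CD20, which B cells carry from the pre-B stage until they become plasma cells. Its score was 0.458 and 0.45531 in control and 0.387 and 0.434 in cKO samples. Both cKO scores were lower, but the log2 fold change of -0.16 (95% confidence interval -0.37 to 0.06, limma adjusted p = 0.336) was within the spread between the cKO samples. It was the highest marker per exon base in all 4 samples. Cd38 codes for an enzyme that makes cyclic ADP-ribose from NAD at the cell surface. Its score was 0.0377 and 0.0384 in control and 0.0370 and 0.0367 in cKO samples. Samples of either group lay within 1.02-fold of each other, and the log2 fold change was -0.05 (95% confidence interval -0.24 to 0.15, limma adjusted p = 0.750), which became 0.0091 when samples were scaled to the pan-B markers.

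In the pan-B list all 14 genes passed the filter, their median log2 fold change was -0.05, and Cd79a was the single one called. Cd79a had scores of 0.667 and 0.743 in control and 0.415 and 0.407 in cKO samples (log2 fold change -0.78, limma adjusted p = 0.0294), and it is the locus that holds the Cre of the cKO mice. In the MS4A family 5 of 16 genes passed the filter, 0 were called, and the median was -0.19. In the list of NAD ectoenzymes with Cd38 3 of 7 passed, 0 were called and the median was -0.05, while Bst1, the paralog beside Cd38, lay under the filter at 0.00265, 0.00108, 0.00094 and 0.0009. Of the genes for CD1 and its loading 4 of 6 passed, 0 were called and the median was 0.26.

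**Figure D3:**
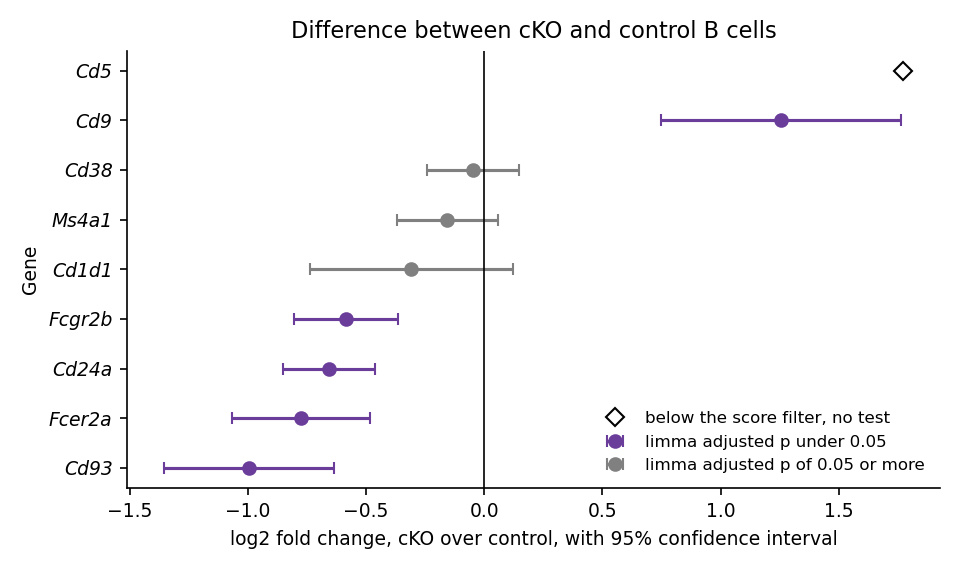
Log2 fold change of cKO over control for the 9 surface markers with limma 95% confidence intervals (bars), filled points in purple for adjusted p under 0.05 and grey otherwise, and an open diamond for Cd5, which was not tested. The values run from -0.995 for Cd93 to 1.25 for Cd9 among the tested genes, and the intervals of Cd38, Ms4a1 and Cd1d1 include 0.

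The groups did not overlap for any of the 8 tested markers. The cKO samples were the lower ones for 7 of them, as they were for 30.1% of the 9727 genes tested, and the higher ones for Cd9, as they were for 28.1%. Of those 7, Cd1d1, Ms4a1 and Cd38 did not pass the test. The 5 calls lay near the threshold, with adjusted p from 0.0306 to 0.0496, and all 5 were lost when limma was run without a variance trend (0.0507 to 0.0883) or with no filter (0.204 to 0.237), while their log2 fold changes stayed the same in both. They were also lost when either cKO sample was left out (0.0669 to 0.247).

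**Figure D4:**
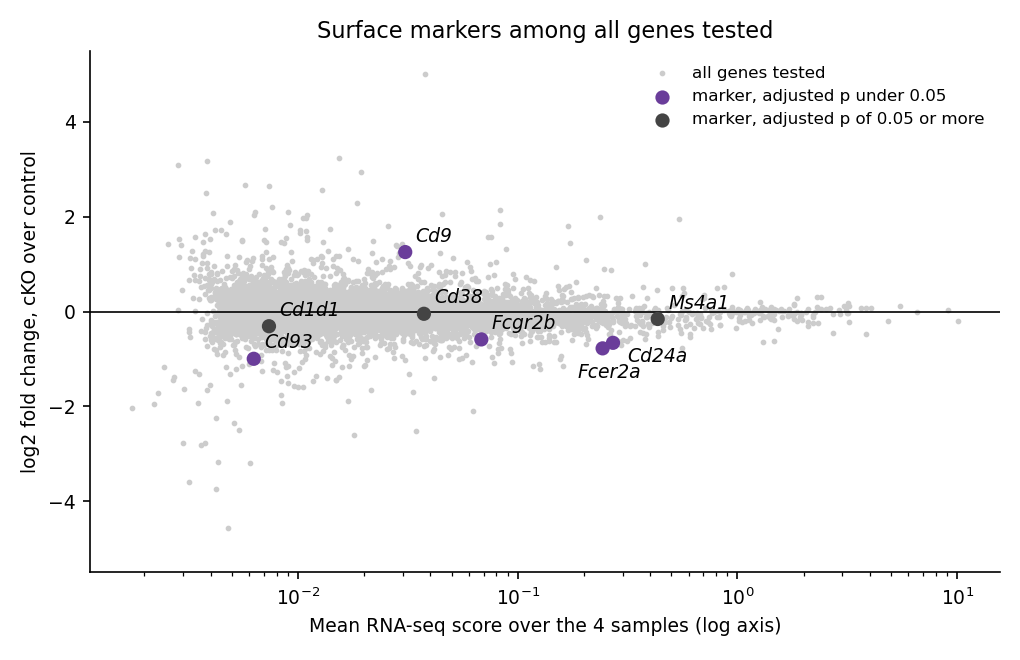
Log2 fold change of cKO over control against mean RNA-seq score (log axis) for the 9727 genes tested (grey points), with the 8 tested surface markers named and those of adjusted p under 0.05 in purple. Cd9, at a log2 fold change of 1.25, lies above most genes at its level, although Lyz2, at a near level, lies higher at 1.39. Fcer2a and Cd24a, at -0.78 and -0.66, lie towards the lower edge of the cloud among highly expressed genes.

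The levels of the markers, per exon base, ran in the same order in both control samples: Ms4a1, Cd24a, Fcer2a, Fcgr2b, Cd38 and Cd9, followed by Cd93 and Cd1d1, whose control scores overlapped, and Cd5. In both cKO samples Cd9 stood above Cd38 and Cd1d1 above Cd93. Cd5 and Cd93 were close there, at 0.0038 and 0.00453 against 0.00435 and 0.00399, and their scores overlapped.

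The genes whose pattern over the 4 samples was most like that of each called marker were found by the Euclidean distance between mean-centred log2 values. Nearest to Cd93 were Nfkbiz (distance 0.065), Pola1 (0.105) and Batf (0.115). Nearest to Fcer2a were Psmb9 (0.060), Sf3a1 (0.073) and Fgd2 (0.081), and nearest to Cd9 were Chrnb1 (0.085), Slc44a1 (0.131) and Phf17 (0.177). For Cd24a they were Gm16379 (0.031), Tspan5 (0.034) and Scd1 (0.043), and for Fcgr2b Cytip (0.028), 5031425E22Rik (0.057) and Serp1 (0.065). Over 4 samples of 2 groups, such a distance is small for many genes of like fold change.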

How the data were processed

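Total RNA of 2 control and 2 cKO cultures of splenic B cells was selected for poly(A) and sequenced by the authors as 38-base reads. The authors mapped them to mm9 with TopHat 2.0, kept reads of a Phred score of at least 25, took out rRNA and tRNA reads with BEDTools and deposited a score per Entrez gene with 5 decimals. How mapped reads became scores, and the unit of the score, were not given in the sources used here. Since the scores are not counts, log2(score + 0.0001) was fitted in R 4.3.3 by lmFit and eBayes of limma 3.58.1 with a variance trend. Genes that reached 0.005 in any sample were kept, with Benjamini-Hochberg adjustment over the genes tested and a threshold of 0.05. Ratios within samples were compared by an exact permutation test. Low scores understate fold changes on this scale. The labels do not say that samples came from separate mice, so the p-values measure the spread between these samples, whether technical or biological. That spread includes 14 genes of control 2 over 4-fold from all other samples, 5 of 11 with a known position being on chromosome 17. The squared difference between the 2 samples of a group was 9.89 (control) and 7.59 (cKO) times that of counting noise, in the median gene. No read depth is given, so that about 17500000 to 19900000 reads per library is an inference from the low scores, and it covers counting error only.

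The markers and gene lists were chosen with earlier results of these data known. Named genes are the 9 markers, Nfkbiz, the genes of each list past the adjusted threshold (at most 4 per list), defining markers of other cells, relatives of the markers, and for each called marker the 3 genes nearest in pattern. Thy1, Lck, Cd2, Gzma, Igll1, Rag1, S100a9 and Elane were named after their values were seen. Some genes of the lists are not reported here by name. The lists were of follicular, marginal zone, B1, transitional and immature, pan-B, plasma, T and NK, myeloid, platelet and erythroid genes and of the Fc receptor, tetraspanin, MS4A, CD1, CD5 and CD38 families, with all genes matched by symbol or, for Mzb1, by Entrez identifier. Positions are from GENCODE on NCBIM37, and promoters from RefSeq on GRCm38.p6. Scripts (Python 3.11.15, pandas 2.3.3, numpy 2.4.6, scipy 1.17.1, matplotlib 3.10.9) were tested on simulated data. Alternatives were other filters, pseudocounts and scalings, no variance trend, a replicate block and each sample left out.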

Additional observations from a re-analysis of the deposited data

How the results depend on the processing

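Against 122 genes lower and 79 higher, limma called 0 in either direction when all genes were kept (1538 lower and 1665 higher before adjustment at 0.05) and 22 and 11 without a variance trend. The numbers higher were 35 with the filter above 0.05 and 161 with samples scaled to the pan-B markers. Leaving out 1 sample in turn gave from 0 to 391 genes lower and from 0 to 439 higher. The values of 0 came without cKO 1 (519 lower and 428 higher before adjustment at 0.05) and without cKO 2 (982 and 767), and the highest came without control 2. With no filter, or without a variance trend, the calls of Fcer2a (-0.78), Cd9 (1.25), Cd93 (-0.995), Cd24a (-0.66) and Fcgr2b (-0.59) were lost at the same log2 fold changes. With quantile normalization, those of Cd9 (1.26, limma adjusted p = 0.0574) and Fcgr2b (-0.53, 0.0565) were lost. With scaling to the pan-B markers, those of Cd24a (-0.60, 0.0639) and Fcgr2b (-0.53, 0.110) were lost and Cd38 changed sign to 0.0091. That scaling used the 13 pan-B genes other than Ms4a1, among them Cd79a, which was itself lower in cKO samples (-0.78). With the filter of 0.001, chosen after the data were seen, Fcer2a (-0.78, 0.0507) and Cd9 (1.25, 0.0627) were lost and Cd5 (1.77, 0.0449) was gained. With 1 sample left out, log2 fold changes ranged from -0.93 to -0.62 for Fcer2a, 0.95 to 1.56 for Cd9, -1.06 to -0.93 for Cd93, -0.70 to -0.61 for Cd24a and -0.66 to -0.51 for Fcgr2b. Without either cKO sample all 5 calls were lost (limma adjusted p from 0.0669 to 0.247), and without control 1 those of Cd93 (0.0631) and Fcgr2b (0.0523). The lone sample is then assumed to vary like the others. Cd1d1 and Ms4a1 passed the threshold under no setting run, and both pseudocounts and scaling to equal medians kept 4 markers lower and 1 higher. The 3 ratios to Fcer2a kept their sign with the pseudocount of 0.001, with quantile normalization and with each sample left out. Fcer2a was itself lower in cKO samples under each of these settings, so the kept sign says little about the other 3 genes. The cause of the changes between settings was not tested.

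Same-numbered samples had deviations that correlated at -0.145 (Pearson) and -0.291 (Spearman) across 9727 genes. With a single difference between samples in each group, this cannot decide whether the numbers pair the samples. A fit with a replicate block called 180 genes lower and 177 higher, and 4 markers lower and 1 higher. The pairs crossed over, an alternative added once the values were known, gave 230 and 212 genes. Depth limits Cd5 most, whose score of 0.00094 rests on about 35 reads.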

Other observations

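Plasma cell genes went in both directions. Of 10 genes in the plasma cell list 9 passed the filter, and 4 of these had a log2 fold change below 0. The median was 0.11. Of the 9, 2 were called lower, against 1.25% of all genes tested, and 0 higher, against 0.812%. Those called were Prdm1, which codes for the plasma cell regulator Blimp-1 (log2 fold change -2.82, limma adjusted p = 0.0429), and Derl3, a factor of protein degradation at the endoplasmic reticulum (-1.88, limma adjusted p = 0.0485). Both passed the filter through control samples alone and stand in the study's own table of genes lower in these samples, so their direction is not independent evidence. Sdc1, which codes for CD138, had scores of 0.00398 and 0.00418 in control and 0.00814 and 0.00604 in cKO samples. Its log2 fold change of 0.77 was not past the threshold (limma adjusted p = 0.116), and it passed the filter through its cKO samples alone. By flow cytometry, a measure of protein, the study reported less CD138 on cKO than on control B cells after LPS.

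In the erythroid list 2 of 8 genes passed the filter, 0 were called and the median was -1.82, and the summed score was 0.0138 in control 1, 0.00283 in control 2, 0.00286 in cKO 1 and 0.00249 in cKO 2. The 3 sums other than that of control 1 lay close together. Some erythroid cells carry CD24, and their part in the difference of Cd24a was not tested.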
